A study of Mus musculus with 6 samples.

Results

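The genes described are 10 secreted chemokines that attract T cells and monocytes: the CXCR3 ligands Cxcl9, Cxcl10 and Cxcl11 and the CC chemokines Ccl2, Ccl3, Ccl4, Ccl5, Ccl7, Ccl9 and Ccl20. They were picked by gene name from the 43043 genes listed for each sample. All 10 were listed, and 9 of them had enough reads to be among the 14419 genes tested. RNA came from cultured D4M-3A cells, a mouse melanoma line, in 3 control (Ctrl) samples and 3 Nfkbiz knockout (Nfkbiz KO) samples. Ctrl cells had received an empty CRISPR-Cas9 construct by lentivirus, Nfkbiz KO cells a lentiviral CRISPR-Cas9 construct against Nfkbiz, and both were selected with puromycin. Both groups grew in the same RPMI-1640 medium with 10% serum, and the labels name no added cytokine. Whether the Nfkbiz KO cells were 1 clone or a pool is not stated in the sources used here. The study counts its replicates as independent experiments, while the labels only number them, so the p-values measure the spread between these samples.

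Chemokines are small secreted proteins that guide leukocytes through receptors on the cells they attract. CXCL9, CXCL10 and CXCL11 share the receptor CXCR3, carried by activated T cells and natural killer cells, and they are typical products of interferon signaling. CCL2 and CCL7 act on CCR2 and recruit monocytes, CCL3, CCL4 and CCL5 attract T cells and monocytes, CCL9 acts on CCR1, and CCL20 on CCR6. Many of these genes also respond to NF-κB, and Nfkbiz encodes IκBζ, a nuclear member of the IκB family that binds NF-κB subunits and alters transcription. The question asked by the comparison is how the mRNA of these chemokines in melanoma cells differs when Nfkbiz is targeted.

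Total gene reads per sample ran from 32219900 to 44927203, so that 0 reads allow a level of up to 0.0668 to 0.0931 CPM (read count scaled to the sample's total), the value of 3 reads. This limit covers counting error only. Nfkbiz itself was lower in Nfkbiz KO, by 0.98 on the log2 scale (standard error 0.056, adjusted p = 6e-08; all adjusted p-values of read counts come from the quasi-likelihood test of edgeR, adjusted by Benjamini-Hochberg across the 14419 genes), but 1848 to 2584 reads remained in each KO sample. Read counts do not measure the protein, and the study reports efficient depletion of IκBζ in D4M-3A cells by immunoblot. Pairs of Ctrl samples differed more (chi-square per degree of freedom 25.8 to 65.9) than pairs of Nfkbiz KO samples (3.41 to 5.89). Of 15 leukocyte markers, 4 were at 0 reads in all samples, among them the T cell genes Cd3d and Cd3e, and the pan-leukocyte gene Ptprc had 0 to 6 reads. The summed level of those 15 markers was 2.05 to 2.91 TPM (a level scaled to transcript length and depth) in Ctrl and 2.00 to 4.26 TPM in Nfkbiz KO, and 1 of them, Cd68, had enough reads to be tested (adjusted p = 0.37). Of 10 melanocyte markers, Sox10, Tyr, Kit and Ednrb were at 0 reads in all 6 samples, and the sum was 1.31 to 1.80 TPM in Ctrl and 1.27 to 1.98 TPM in Nfkbiz KO. Mitf, the lineage's transcription factor, had 60 to 115 reads and Pmel 18 to 34 reads per sample, and both were tested and did not pass. In cells labelled as melanoma, the pigment lineage genes were thus at 0 or low.

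Among the CXCR3 ligands the sequence before the gene could be shown for Cxcl10 and Cxcl9. The 300 bases below run from 250 bases before the RefSeq start site to 50 after it, on the gene's own strand. They come from RefSeq (GRCm38.p6) and matched GRCm39 without a difference, at chr5:92496699-92496998 for Cxcl10 and at chr5:92475889-92476188 for Cxcl9, both on the minus strand. Both are shown because they are the promoters of the highest and of the lowest CXCR3 ligand. Capitals mark matches to 3 motifs: the core of the interferon-stimulated response element (GAAANNGAA) and a κB site (GGGANNTTC), both searched on both strands, and the TATA box (TATAAA), searched only on the gene's own strand.
Cxcl10 promoter: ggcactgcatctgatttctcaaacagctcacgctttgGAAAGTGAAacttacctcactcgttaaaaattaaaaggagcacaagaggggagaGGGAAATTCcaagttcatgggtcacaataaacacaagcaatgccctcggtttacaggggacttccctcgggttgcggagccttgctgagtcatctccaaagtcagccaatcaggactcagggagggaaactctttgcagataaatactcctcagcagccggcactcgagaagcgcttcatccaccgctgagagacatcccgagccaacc
Cxcl9 promoter: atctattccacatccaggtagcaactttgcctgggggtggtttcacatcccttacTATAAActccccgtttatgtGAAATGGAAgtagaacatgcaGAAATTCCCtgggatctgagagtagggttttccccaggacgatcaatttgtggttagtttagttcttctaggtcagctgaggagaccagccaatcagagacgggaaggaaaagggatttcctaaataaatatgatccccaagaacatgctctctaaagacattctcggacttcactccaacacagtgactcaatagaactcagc
The Cxcl10 promoter held an interferon-stimulated response element core (GAAAGTGAA) starting 213 bases before the start site and a κB match (GGGAAATTC) starting 159 bases before it. The Cxcl9 promoter held the core GAAATGGAA from 175 bases before the start, a κB match read on the other strand (GAAATTCCC) from 154 bases before it and a TATA box from 195 bases before it. Of all 32851 promoters in the table, 8.56% held the response element core and 3.94% the κB site on either strand, and 8.32% held the TATA box on the gene's own strand. A STAT site (TTCNNNGAA), held by 8.30% of all promoters, was not among the letters of either. With the stricter κB letters GGGANTTTC, held by 1.11%, the match in Cxcl9 stayed and the match in Cxcl10 did not. Other spellings of the κB site were not searched, so unmarked letters of either promoter may still hold one. The matches therefore do not rank the promoters by their κB sites. Of the CC chemokines, 3 had a promoter in the table. The Ccl9 promoter held a TATA box on its own strand from 92 bases before its start, the Ccl3 promoter the core on the other strand (TTCCATTTC) from 39 bases before it, and the Ccl20 promoter none of these motifs. Cxcl11, Ccl2, Ccl4, Ccl5 and Ccl7 had no entry. These matches are letters in a window and no measure of binding.

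The study designed mouse primers for chromatin immunoprecipitation (ChIP) at Ccl5, Cxcl9 and Cxcl10, which it used in another mouse melanoma line, B16-F10, and not in the D4M-3A cells described here. They are printed 5′ to 3′ with no capitals, because their place relative to each gene shows which DNA that assay reads.
Cxcl10 ChIP forward: caccgctctgtccaatgtcc
Cxcl10 ChIP reverse: tgattgtgtcaccgggaagc
Cxcl9 ChIP forward: cctcacctcgaactccacac
Cxcl9 ChIP reverse: tcagctctgccatgaagtcc
Ccl5 ChIP forward: gttctgaaggggtgggagtc
Ccl5 ChIP reverse: aaaagcctccagtgtccagc
Each of these primers had 1 match on the GRCm39 chromosome of its gene. Other chromosomes were not searched. The Cxcl9 pair spans chr5:92475816-92475893 (78 bases) inside the gene, 52 to 129 bases after the outermost annotated start, and touches an exon. The Cxcl10 pair spans chr5:92501624-92501724 (101 bases), at least 4876 bases before the outermost start of Cxcl10 and in none of its exons. The Ccl5 pair spans chr11:83423108-83423181 (74 bases) within the annotated gene, outside its exons and 1763 bases from the nearest annotated transcript start. It lies 2761 to 2834 bases after the outermost annotated start of this minus-strand gene, but upstream of a later annotated start. The Cxcl10 and Ccl5 amplicons therefore lie at a distance from annotated start sites, whereas the Cxcl9 amplicon lies 44 bases from one. According to the methods, the primers were placed in promoter regions where STAT3 and p65 bind. The methods name no distance to a start site.

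Of the 9 chemokine genes tested, 4 rose in Nfkbiz KO, 2 fell and 3 did not pass an adjusted p of 0.05. Over all genes tested, 18.2% rose, 18.4% fell and 36.6% passed in either direction. The study's own thresholds require more than a 2-fold change and a mean difference of more than 4 (taken here as TPM) in addition to that p. Cxcl10, Ccl4 and Ccl5 met them, all 3 higher in Nfkbiz KO, against 0.756% of all genes called higher and 1.79% called in either direction. The log2 CPM of the groups did not overlap for 7 of the 9 genes, and for 48.4% of all genes tested. The median log2 fold change of the 9 was 0.23, beside -0.02 over all genes tested. Bulk RNA cannot tell a change in the number of cells that make a transcript from a change in its amount per cell.

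**Figure D1:**
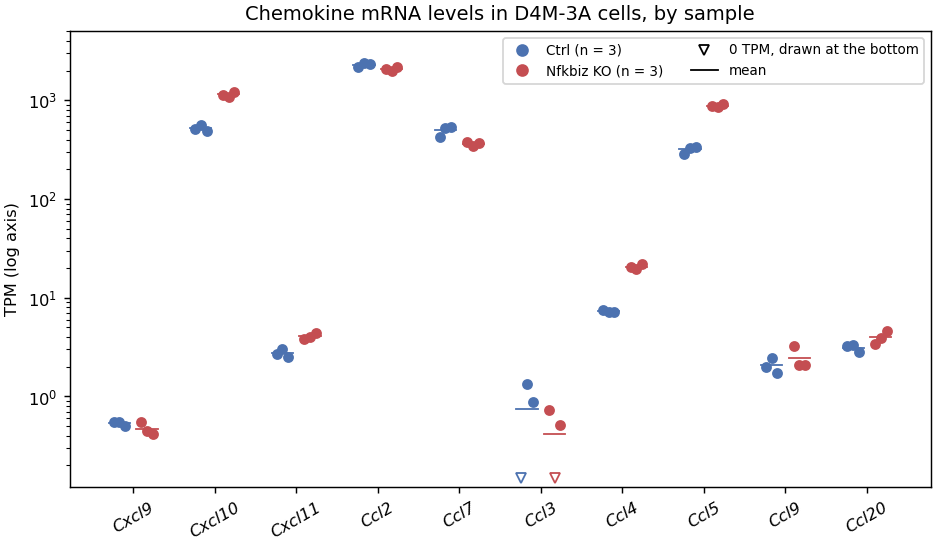
mRNA levels of the 10 chemokine genes (x axis) in TPM on a log axis, with 1 point per sample in Ctrl and Nfkbiz KO (n = 3 each), a line at each group's mean and open triangles for values of 0. Cxcl10, Ccl5 and Ccl4 lie higher in all 3 Nfkbiz KO samples than in any Ctrl sample, Ccl7 lies lower, and the levels of the 10 genes span from 0.414 to 2300 TPM in their means.

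Cxcl10, the CXCR3 ligand with by far the most mRNA, had 517, 558 and 493 TPM in Ctrl replicates 1, 2 and 3. The 3 Nfkbiz KO samples had 1139, 1087 and 1221 TPM in the same order of numbers. The groups lay far apart, and the mean rose from 523 ± 32.6 to 1149 ± 67.3 TPM (SD, n = 3 each). The read counts gave a 2.06-fold rise (95% confidence interval 1.88 to 2.25, log2 fold change 1.04, standard error 0.060, adjusted p = 6.6e-08 from edgeR). This lies close to the study's fold threshold of 2, and with Nfkbiz KO replicate 3 left out the value of 0.99 fell short of it. Cxcl10 lies on chr5:92494497-92496748 of GRCm39 and wholly inside Art3 on the opposite strand, with which it shares 133 exonic bases. Reads were counted from both strands, so reads on the shared bases cannot be assigned by strand. Art3, an ADP-ribosyltransferase family gene, was low, at 6.23 ± 0.417 TPM in Ctrl against 8.36 ± 0.882 TPM among Nfkbiz KO samples (SD, n = 3 each).

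Cxcl11, the neighbour of Cxcl10 on chr5:92507403-92513344, was present at low levels. It had 2.66, 3.03 and 2.51 TPM in Ctrl and 3.81, 3.98 and 4.38 TPM in Nfkbiz KO, from 109 to 218 reads per sample. All 3 Nfkbiz KO samples were above all Ctrl samples, and the rise was 1.38-fold (95% confidence interval 1.12 to 1.70, log2 fold change 0.46, adjusted p = 0.021 from edgeR). This call was lost without Nfkbiz KO replicate 2 (log2 fold change 0.48, adjusted p = 0.051) or without Nfkbiz KO replicate 3 (0.38, adjusted p = 0.11). RefSeq lists Cxcl11 of the reference strain as a transcribed pseudogene, while GENCODE lists it as protein coding. An annotated processed pseudogene, Gm2673, shares 1582 exonic bases with it, and 97.2% of the Cxcl11 reads mapped uniquely.

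Cxcl9, at chr5:92469206-92475945, had few reads: 17, 18 and 20 in Ctrl against 15, 15 and 16 in Nfkbiz KO. Its level was 0.548, 0.553 and 0.502 TPM in Ctrl and 0.553, 0.447 and 0.420 TPM in Nfkbiz KO, and the groups overlapped on that scale, though not in normalized log2 CPM. All samples were above the 3-read limit, so Cxcl9 was detected, at a mean of 0.534 TPM in Ctrl where Cxcl10 had 523. The log2 fold change was -0.28 (95% confidence interval -1.0 to 0.44, adjusted p = 0.56 from edgeR). At this depth a change to between 0.50 and 1.36 times the Ctrl level could not be told from none. Cxcl9, which lies in the same 44.1 kb as Cxcl10 and Cxcl11, was thus the CXCR3 ligand for which no change was detectable.

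Ccl5, which encodes RANTES and attracts T cells, had 287, 332 and 336 TPM in Ctrl. In Nfkbiz KO it had 868.2, 848 and 907 TPM. All Nfkbiz KO samples were far above all Ctrl samples, and the mean went from 318 ± 27.2 to 874 ± 29.99 TPM (SD, n = 3 each). The read counts rose 2.59-fold (95% confidence interval 2.33 to 2.88, log2 fold change 1.37, adjusted p = 2.6e-08 from edgeR). With each sample left out in turn its log2 fold change stayed between 1.30 and 1.45. Ccl5 lies on chr11:83416602-83425942, on the minus strand.

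Ccl4, which encodes MIP-1β, had 7.51, 7.16 and 7.11 TPM in Ctrl and 20.6, 19.4 and 22.0 TPM in Nfkbiz KO. It rose 2.65-fold (95% confidence interval 2.08 to 3.38, log2 fold change 1.41, adjusted p = 2.5e-05 from edgeR), from 52 to 68 reads per sample in Ctrl to 130 to 189 in Nfkbiz KO. Its interval includes the fold of Ccl5, a gene with far more mRNA, and the difference between the folds was not tested. Ccl3, which encodes MIP-1α and lies next to Ccl4, had few reads. It was at the limit of detection in Ctrl replicate 1 and Nfkbiz KO replicate 2 and above it in the other samples. Its reads were 0, 11 and 9 in Ctrl against 5, 0 and 6 in Nfkbiz KO, or 0, 1.33 and 0.889 TPM and 0.726, 0 and 0.517 TPM. The count of 0 in Ctrl replicate 1 allows up to 0.0850 CPM and the count of 0 in Nfkbiz KO replicate 2 up to 0.0757 CPM. No test was made for Ccl3, which was the only one of the 10 genes with 0 reads in any sample. An annotated antisense transcript, Gm53692, shares 276 exonic bases with Ccl3.

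Ccl2, which encodes the monocyte attractant MCP-1, was the most abundant of the 10 genes in both groups. It had 2164, 2386 and 2350 TPM in Ctrl and 2081, 1991 and 2168 TPM in Nfkbiz KO. On this scale the highest Nfkbiz KO sample lay just above the lowest Ctrl sample, while the normalized log2 CPM of the groups did not overlap. The read counts fell to 0.844 of the Ctrl level (95% confidence interval 0.767 to 0.930, log2 fold change -0.24, adjusted p = 0.010 from edgeR). This small fall did not pass on log2(TPM + 1) with limma (-0.14, adjusted p = 0.11), without Nfkbiz KO replicate 1 (-0.24, adjusted p = 0.057) or without Nfkbiz KO replicate 2 (-0.21, adjusted p = 0.070).

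Ccl7, which encodes MCP-3 and lies within 11.96 kb of chromosome 11 with Ccl2, fell further. It had 422, 525 and 540 TPM in Ctrl and 379, 342 and 373 TPM in Nfkbiz KO, with all Nfkbiz KO samples below all Ctrl samples. Its mean went from 495 ± 64.2 to 365 ± 19.5 TPM (SD, n = 3 each). The read counts fell to 0.686 of the Ctrl level (95% confidence interval 0.601 to 0.783, log2 fold change -0.54, adjusted p = 0.00043 from edgeR), and with each sample left out the log2 fold change stayed between -0.65 and -0.44. The pair of CCR2 ligands thus fell while Ccl5, Ccl4, Cxcl10 and Cxcl11 rose. Under 13 other settings the call of Ccl2 held in 9 and that of Cxcl11 in 11.

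Ccl9, a ligand of CCR1, had 2.01, 2.43 and 1.74 TPM in Ctrl and 3.22, 2.10 and 2.08 TPM in Nfkbiz KO, and the groups overlapped. Its log2 fold change was 0.12 (95% confidence interval -0.35 to 0.60, adjusted p = 0.70 from edgeR). Ccl20, the ligand of CCR6 on chr1:83094487-83096888, had 3.21, 3.32 and 2.82 TPM in Ctrl and 3.37, 3.92 and 4.63 TPM in Nfkbiz KO. These TPM did not overlap but the normalized log2 CPM did, and the log2 fold change was 0.23 (95% confidence interval -0.23 to 0.70, adjusted p = 0.43 from edgeR). Both genes had 43 to 88 reads per sample, and their intervals include a rise as large as that of Cxcl11.

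**Figure D2:**
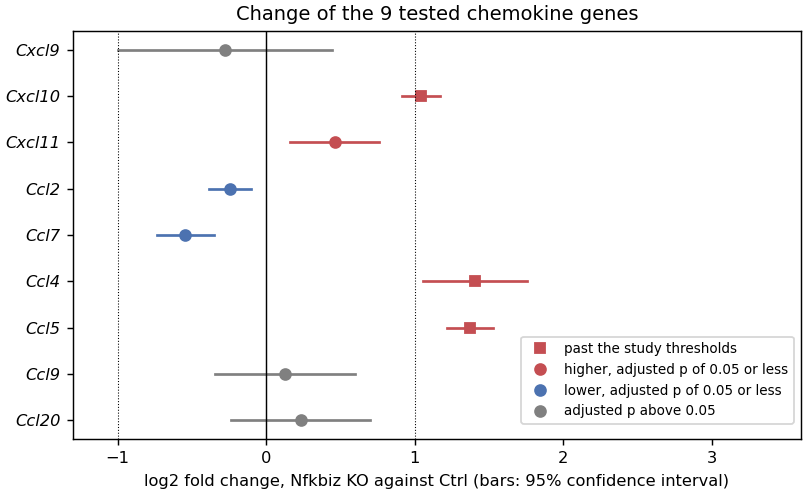
Log2 fold change of the 9 tested chemokine genes in Nfkbiz KO against Ctrl, with the 95% confidence interval as a bar, the study's 2-fold limits as dotted lines and colors for the direction of genes past an adjusted p of 0.05. Ccl4, Ccl5 and Cxcl10 lie past 1, Cxcl11 between 0 and 1, Ccl2 and Ccl7 below 0, and the intervals of Cxcl9, Ccl9 and Ccl20 include 0.

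In Ctrl the levels fell in the order Ccl2, Cxcl10, Ccl7, Ccl5, Ccl4, Ccl20, Cxcl11, Ccl9, Ccl3 and Cxcl9. The values of Cxcl10 and Ccl7 overlapped, as did those of Ccl20 and Cxcl11 and those of Ccl3 and Cxcl9, so these neighbors did not differ beyond their spread. In Nfkbiz KO the order was Ccl2, Cxcl10, Ccl5, Ccl7, Ccl4, Cxcl11, Ccl20, Ccl9, Cxcl9 and Ccl3. There the values of Cxcl11 and Ccl20 overlapped, as did those of Cxcl9 and Ccl3, so the order within these pairs was not resolved in either group. Ccl5 lay below Ccl7 in all 3 Ctrl samples and above it in all 3 Nfkbiz KO samples. In both groups, 4 genes (Ccl2, Cxcl10, Ccl5 and Ccl7) held nearly all of the summed chemokine mRNA and the other 6 had means of 20.6 TPM or less. Among the 43043 genes listed, Ccl2 ranked 50th by mean TPM in Ctrl and 52nd in Nfkbiz KO. Cxcl10 went from rank 243 to 121 and Ccl5 from 436 to 160.

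The summed level of the 10 genes was 3652 ± 218 TPM in Ctrl against 4500 ± 202 TPM in Nfkbiz KO (SD, n = 3 each). The make-up of this sum differed between the groups. The CCR2 ligands Ccl2 and Ccl7 held 75.9%, 76.2% and 77.4% of it in the Ctrl samples and 54.7%, 54.3% and 54.0% in the Nfkbiz KO samples. The CXCR3 ligands held 15.3%, 14.7% and 13.3% in Ctrl and 25.4%, 25.4% and 26.1% in Nfkbiz KO. Ccl3, Ccl4 and Ccl5 together held 8.64%, 8.91% and 9.21% in Ctrl and 19.8%, 20.2% and 19.8% in Nfkbiz KO. For each of these 3 sets of genes the groups did not overlap, which in an exact permutation test of 3 samples against 3 gives at best p = 0.1, two-sided, and the shares add up to a fixed total and so move together.

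**Figure D3:**
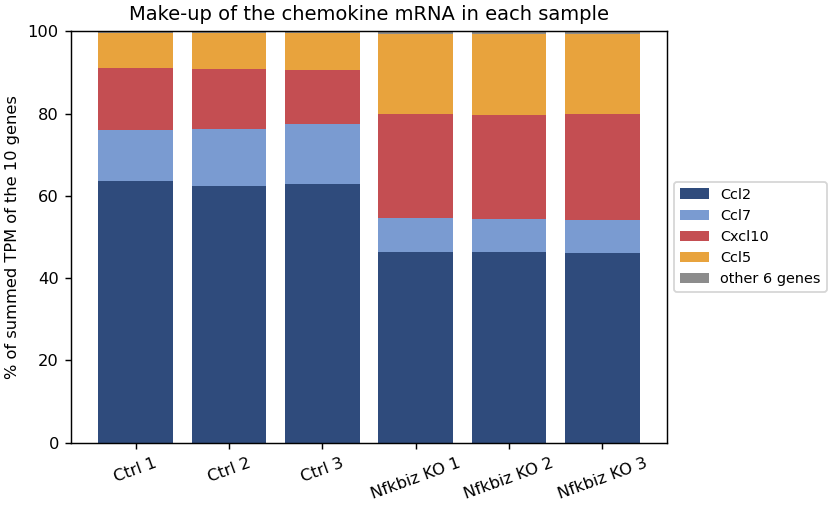
Make-up of the summed TPM of the 10 chemokine genes in each of the 6 samples (x axis), as percent on the y axis. Ccl2 and Ccl7 together hold 76.5% on average in Ctrl and 54.3% in Nfkbiz KO, and Cxcl10 and Ccl5 take up most of the rest.

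Ratios within a sample do not depend on its depth. Cxcl10 had 0.228 ± 0.015 TPM per TPM of Ccl2 in Ctrl, and 0.552 ± 0.0095 after Nfkbiz was targeted (SD, n = 3 each). The ratio of Ccl5 to Ccl2 went from 0.138 ± 0.0052 to 0.420 ± 0.0047. Between the highest genes that rose, Cxcl10 per Ccl5 was 1.65 ± 0.17 in Ctrl and 1.31 ± 0.032 in Nfkbiz KO, and between the CCR2 ligands Ccl2 per Ccl7 was 4.68 ± 0.40 and 5.71 ± 0.19.

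The genes around these chemokines were compared next, as 9 of the 10 lie in clusters: Cxcl9, Cxcl10 and Cxcl11 on chromosome 5, and Ccl2 with Ccl7 and Ccl5, Ccl9, Ccl3 and Ccl4 on chromosome 11. Within 150 kb of the 10 genes, 14 other genes were tested, of which 4 rose, 1 fell and 9 did not pass. Over all genes tested 36.6% passed in either direction, so this count lay near the general share. The same share applies to the counts of the gene lists below. Near the CXCR3 ligands, Scarb2, which encodes a lysosomal membrane protein, rose from 58.5 ± 2.89 to 91.1 ± 1.23 TPM (log2 fold change 0.54, adjusted p = 2.9e-06 from edgeR). Sdad1, between the chemokines and Naaa, rose by 0.25 and Art3 by 0.34 on the log2 scale (adjusted p = 0.0044 and 0.0070 from edgeR). Art3 spans all of Cxcl10 and Cxcl11, and reads were counted without regard to strand and also outside exons. Its count may thus hold reads of these chemokines, and how many was not tested. Uso1, Naaa and Nup54 did not pass.

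Heatr9, the nearest tested gene to Ccl5, had 0.225 ± 0.167 TPM in Ctrl against 0.763 ± 0.290 TPM in Nfkbiz KO (SD, n = 3 each), while its read counts rose by 2.08 on the log2 scale (standard error 0.40, adjusted p = 0.0014 from edgeR). Its TPM did not pass with limma (adjusted p = 0.052 with a pseudocount of 1). The other 5 tested neighbors of Ccl5, Ccl9, Ccl3 and Ccl4 did not pass, with log2 fold changes from -0.24 for Mmp28 to 0.07 for Heatr6. Beside Ccl2, Gm31522 on the opposite strand had a log2 fold change of -0.52 by total gene reads (adjusted p = 0.026 from edgeR) and of -0.07 by unique gene reads (adjusted p = 0.86), but it had 0.400 ± 0.287 TPM in Ctrl against 0.905 ± 0.608 TPM in Nfkbiz KO, so its direction depended on the measure. Its call was also lost without Ctrl replicate 2 (-0.41, adjusted p = 0.099), without Nfkbiz KO replicate 2 (-0.48, adjusted p = 0.088) or without Nfkbiz KO replicate 3 (-0.49, adjusted p = 0.090). Ccl8, a further CC chemokine near Ccl2 and Ccl7, had 3.12 ± 0.475 and 4.90 ± 1.64 TPM and did not pass (adjusted p = 0.20).

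**Figure D4:**
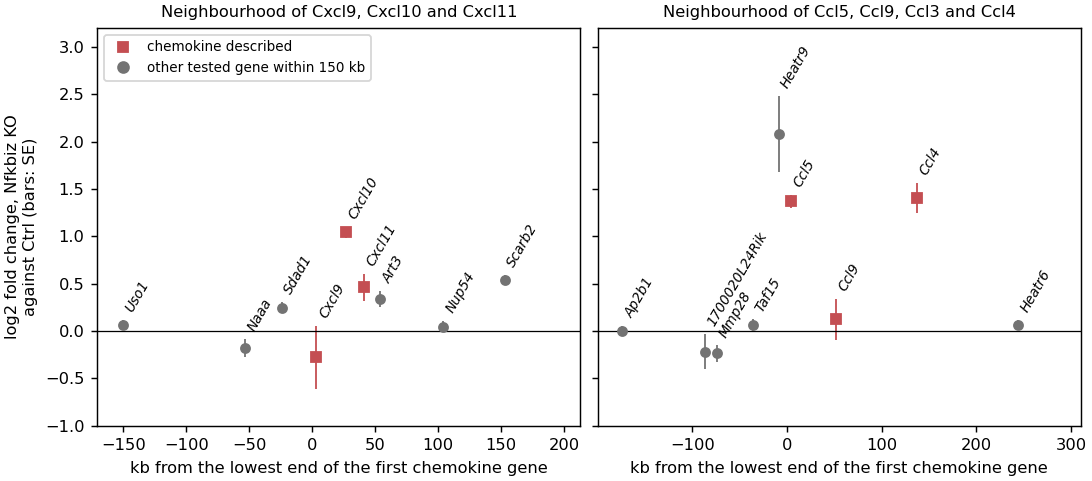
Log2 fold change with its standard error for tested genes by their distance in kb from the first chemokine gene of the cluster, left around Cxcl9, Cxcl10 and Cxcl11 and right around Ccl5, Ccl9, Ccl3 and Ccl4. Squares are the chemokines described and circles the other genes. On the right Heatr9, Ccl5 and Ccl4 stand above 1 while Ccl9 between them and the other neighbors lie near 0.

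Of 28 other chemokine ligands, 9 were tested, of which 1 rose, 4 fell and 4 did not pass, with a median log2 fold change of -0.11, and 10 had 0 reads in all samples. Cx3cl1, which encodes fractalkine, rose from 54.6 to 97.0 TPM (log2 fold change 0.73, adjusted p = 1.5e-06 from edgeR). Cxcl1, a neutrophil attractant, fell from 182 to 122 TPM (-0.67, adjusted p = 2.8e-05 from edgeR). Cxcl5, another neutrophil attractant, went from 57, 71 and 79 reads in Ctrl to 1, 0 and 2 in Nfkbiz KO (adjusted p = 9.7e-07 from edgeR).

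Most receptors of these ligands had few reads or none. Of 11 chemokine receptor genes 3 were tested, and 1 rose and 2 fell. Ccr2 and Ccr6 had 0 reads in all samples and Ccr1 had 0 to 6. Cxcr3, the receptor of Cxcl9, Cxcl10 and Cxcl11, fell from 29, 21 and 18 reads in Ctrl to 9, 5 and 5 in Nfkbiz KO (log2 fold change -1.85, standard error 0.46, adjusted p = 0.0080 from edgeR), at mean levels of 1.15 and 0.313 TPM. Ccrl2, a decoy-like receptor that binds chemerin, rose from 1.94 to 4.47 TPM (log2 fold change 1.13, adjusted p = 0.0023 from edgeR). Ackr3, a scavenging receptor for CXCL11 and CXCL12, fell by 0.31 on the log2 scale (adjusted p = 0.034 from edgeR), a call that 4 of the 6 fits with 1 sample left out did not give, those without Ctrl replicate 2 or 3 or without Nfkbiz KO replicate 1 or 2.

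Interferon signaling genes, inputs of the CXCR3 ligands, moved in both directions. Of 16 tested genes of the interferon list, 6 rose, 3 fell and 7 did not pass, and the median log2 fold change was -0.03. Ifnb1, which encodes interferon β, rose from 14, 20 and 14 reads in Ctrl to 43, 54 and 71 in Nfkbiz KO (log2 fold change 1.76, standard error 0.28, adjusted p = 0.00042 from edgeR). Ifng, the interferon made by T cells and natural killer cells, had 0 reads in all samples. The transcription factor gene Irf7 rose from 421 to 657 TPM (0.55, adjusted p = 9.4e-06 from edgeR) and Irf1 from 67.9 to 99.5 TPM (0.45, adjusted p = 2.2e-05 from edgeR). The log2 fold changes of both were below that of Cxcl10, and the difference was not tested.

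Of 12 tested genes of the NF-κB list, 5 rose, 3 fell and 4 did not pass, with a median log2 fold change of 0.09. Without Nfkbiz KO replicate 1, 5 of these genes passed in place of 8. Bcl3, a nuclear IκB protein like IκBζ, fell from 57.8 to 23.1 TPM (-1.45, adjusted p = 5.9e-09 from edgeR), while Nfkb2 rose from 112 to 155 TPM (0.37, adjusted p = 0.00035 from edgeR) and Ikbkg, a subunit of the IKK complex, from 17.6 to 24.9 TPM (0.36, adjusted p = 0.00029 from edgeR). Il1b had 0 reads in all samples and Tnf 0 to 6, so transcripts of these inducers of Ccl2 and Ccl20 were at or near the limit of detection.

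The study asked about EZH2, the methyltransferase of Polycomb repressive complex 2, and the histone deacetylase HDAC3 as regulators of Ccl5, Cxcl9 and Cxcl10, in cell lines other than D4M-3A. Of 13 genes of these complexes, all tested, 2 rose, 2 fell and 9 did not pass, with a median log2 fold change of -0.00064. Ezh2, at 38.7 and 42.2 TPM in the groups, did not pass (log2 fold change 0.03, adjusted p = 0.71 from edgeR). Hdac3 fell from 84.9 to 71.5 TPM (-0.34, standard error 0.054, adjusted p = 0.00041 from edgeR) and Suz12, a core Polycomb subunit, rose from 67.7 to 92.3 TPM (0.35, adjusted p = 0.00050 from edgeR). Jarid2, a Polycomb cofactor, fell by 1.29 on the log2 scale (adjusted p = 0.011 from edgeR). Ctrl replicate 1 had 5491 total gene reads against 1928 and 2173 in the other Ctrl samples. Without that sample the fall was 0.52 (log2 fold change -0.52, adjusted p = 0.0012 from edgeR). In TPM the Ctrl samples lay closer together, at 3.32, 2.91 and 2.82, and the mean went from 3.02 in Ctrl to 1.89 in Nfkbiz KO. RNA levels do not measure the amount of these proteins or their place on the chemokine genes.

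The genes whose log2 CPM followed Cxcl10 most closely over the 6 samples were Gbp3 (Pearson's r of 0.9993), Irgm1, Usp18, Aida and Nt5c3, out of 14410 genes compared. Those closest to Ccl5 were Gm15473 (r of 0.9997), Esm1, Ercc6l, Chic1 and H2-Q6, the last a member of a multigene family that can share reads. Such values are frequent with 2 separated groups of 3, since 1869 genes had an r above 0.9 to Cxcl10 and 1690 to Ccl5. Ccl5 itself had an r of 0.991 to Cxcl10, and 174 genes, with Cxcl10 itself counted among them, had an r above that. Gbp3 rose from 316 to 557 TPM and Esm1, which encodes endocan, from 78.1 to 193 TPM.

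**Figure D5:**
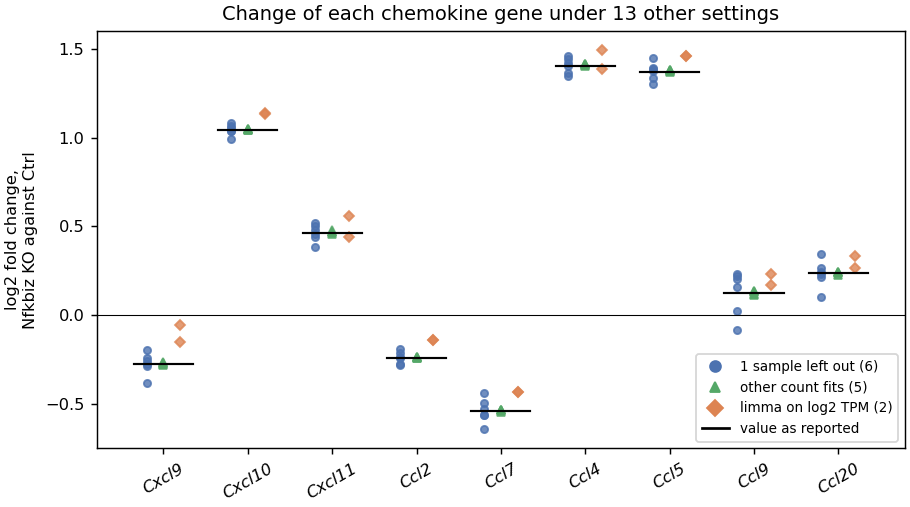
Log2 fold change of the 9 tested chemokine genes in Nfkbiz KO against Ctrl under 13 other settings (points) beside the value reported (line): 6 fits with 1 sample left out, 5 other fits of counts and 2 limma fits of log2 TPM. Cxcl10, Ccl4 and Ccl5 stay at 0.99 or more and Ccl7 at -0.43 or less in all 13, whereas Ccl9 crosses 0.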

How the data were processed

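RNA of 6 samples, 3 Ctrl and 3 Nfkbiz KO, was compared. The authors mapped paired reads with CLC Genomics Workbench, without regard to strand and with pairs counted as 1, to GRCm39 according to the methods. The submitters' processing notes name GRCm38 instead. They deposited, per gene, raw counts (total and unique gene reads), which also hold reads outside exons, and TPM and RPKM values. RPKM and the expression value were not used. The deposited TPM had decimal commas, which were converted. Total gene reads were tested with edgeR 4.0.16 in R 4.3.3: TMM, filterByExpr (minimum count 10, minimum total 15), quasi-likelihood test, Benjamini-Hochberg adjustment over 14419 genes. Standard errors are the size over the root of F. Overlap used log2 CPM with a prior count of 0.5.

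The alternatives were DESeq2 1.42.0, RLE factors, no filter, limma 3.58.1 on log2(TPM + 1) and log2(TPM + 0.1), unique reads, a replicate block, each sample left out, no difference cut-off, a fold change of at least 1.5 with an adjusted p of 0.1 or less, other neighbor distances and a stricter κB motif. The edgeR and limma steps were tested on simulated data. Unique reads were 96.5% to 96.9% of total gene reads, and no pair of samples within a group agreed within counting noise. Loci are from GENCODE on GRCm39, matched by symbol, and promoters from RefSeq, which held 5 of the 10 genes. Primers are those listed by the study.

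The 10 genes and all lists were chosen with earlier results of these data known. In each list other than the markers, the 3 genes with the lowest adjusted p are named, with Nfkbiz, Ezh2, Hdac3 and Ifnb1 always, and the 5 genes most like Cxcl10 and Ccl5. Other genes were named after their values were seen. Some items under this rule are not reported here.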

Additional observations from a re-analysis of the deposited data

How the results depend on the processing

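Over 13 alternatives each, the log2 fold changes of Cxcl10, Ccl4, Ccl5 and Ccl7 kept their direction and stayed past an adjusted p of 0.05, and those of Cxcl9 and Ccl20 kept theirs and stayed short of it. Of the 9 tested chemokine genes 4 to 6 passed with 1 sample left out, against 6. With 1 sample left out, the log2 fold change of Ccl9 ran from -0.085 (without Nfkbiz KO replicate 1, adjusted p = 0.82) to 0.23 and that of Ezh2 from -0.00091 (without Nfkbiz KO replicate 3) to 0.075, neither of them called, and that of Gm31522 was 0.42 and 1.03 on log2(TPM + 1) and log2(TPM + 0.1). Jarid2 did not pass with DESeq2 (adjusted p = 0.059). The NF-κB list had 5 to 8 genes past the threshold with 1 sample left out. Within 500 kb, 9 neighboring genes passed in place of 5 within 150 kb, because more genes were counted, and 1 member promoter in place of 2 held the stricter κB motif. By limma on log2(TPM + 1), 3004 genes were higher and 1327 lower, against 2627 and 2647 by edgeR, and its median over all genes was 0.06 in place of -0.02. The cause was not tested.

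The correlations of deviations were 0.051, -0.014 and 0.031 for equal replicate numbers and ran from -0.056 to 0.027 for unequal numbers. With 3 samples per group, such values cannot show whether samples of equal number were prepared together. With a replicate block 6 of the 9 chemokine genes passed, as without it, 3 met the study thresholds, Cxcl10 had a log2 fold change of 1.04, and 5087 of all genes passed in place of 5274. Depth limits Ccl3 and Cxcl9 most, with 0 to 20 reads per sample.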
